A study of Homo sapiens with 6 samples.

Results

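Fatty acid synthesis turns acetyl-CoA into palmitate in the cytosol, and the expression of its first enzymes was compared here between cells with and without a DAXX hairpin. The 8 genes were chosen by name for their place in this route, with earlier results of these data known. They are SLC25A1, ACLY and ACSS2 for the supply of acetyl-CoA, ME1 for NADPH, ACACA and ACACB for malonyl-CoA, FASN for the fatty acid chain and THRSP as a regulator. All 8 were measured, each by 1 transcript cluster (the set of probes that reports a gene's transcripts) that the annotation pairs with no other gene, among 22465 genes in all.

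The cells were MDA-MB-231, an established human triple-negative breast cancer line. Lentivirus had delivered an shRNA to DAXX (shDAXX) or one with a scrambled sequence (shControl), and cells of both groups were selected with 2 µg/ml puromycin and kept as stable lines. Each group had 3 biological replicates, grown for 24 hours in complete medium, serum included by the study's definition, and each gave 1 array from 200 ng of total RNA. The methods name a single DAXX hairpin, driven by the human H1 promoter, so its effects on other transcripts and those of losing DAXX cannot be told apart in these data, and no source used here says whether the lines were clones or pools.

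Mitochondria export citrate through the carrier SLC25A1, and ACLY, the ATP citrate lyase, cleaves it in the cytosol to acetyl-CoA and oxaloacetate. ACSS2 makes acetyl-CoA from free acetate, and ME1, the cytosolic malic enzyme, yields NADPH. The biotin-dependent acetyl-CoA carboxylases ACACA, in the cytosol, and ACACB, at the mitochondrial surface, make malonyl-CoA, which FASN, the fatty acid synthase, extends into palmitate with NADPH. THRSP, known as Spot 14, is a nuclear and cytosolic protein linked to lipogenic gene expression in liver, fat and lactating mammary gland. Several of these genes are known targets of the SREBP transcription factors, which bind sterol regulatory elements and E-boxes together with NF-Y and Sp1.

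Of these genes, 6 were lower in shDAXX and 0 were higher. FASN fell most, to 21.2% of its control signal, followed by ACLY (41.2%), ACACA (42.7%), ACSS2 (56.0%), SLC25A1 (66.9%) and ME1 (74.9%). ACACB and THRSP did not pass the test. The 6 called lower among 8 compare with 5.60% of all 22465 genes, the 0 called higher with 4.30%, and for the same 6 every shDAXX array lay below every shControl array, which held for 14.7% of all genes. A call is an adjusted p under 0.05 in limma, fitted over all genes. The median log2 fold change of the 8 genes was -0.71, beside 0.007 for all genes, and 3 of the 8 fell by more than 1 log2 unit, as did 0.645% of all genes. In RNA from a whole culture, fewer cells with a transcript and less of it per cell cannot be told apart.

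**Figure D1:**
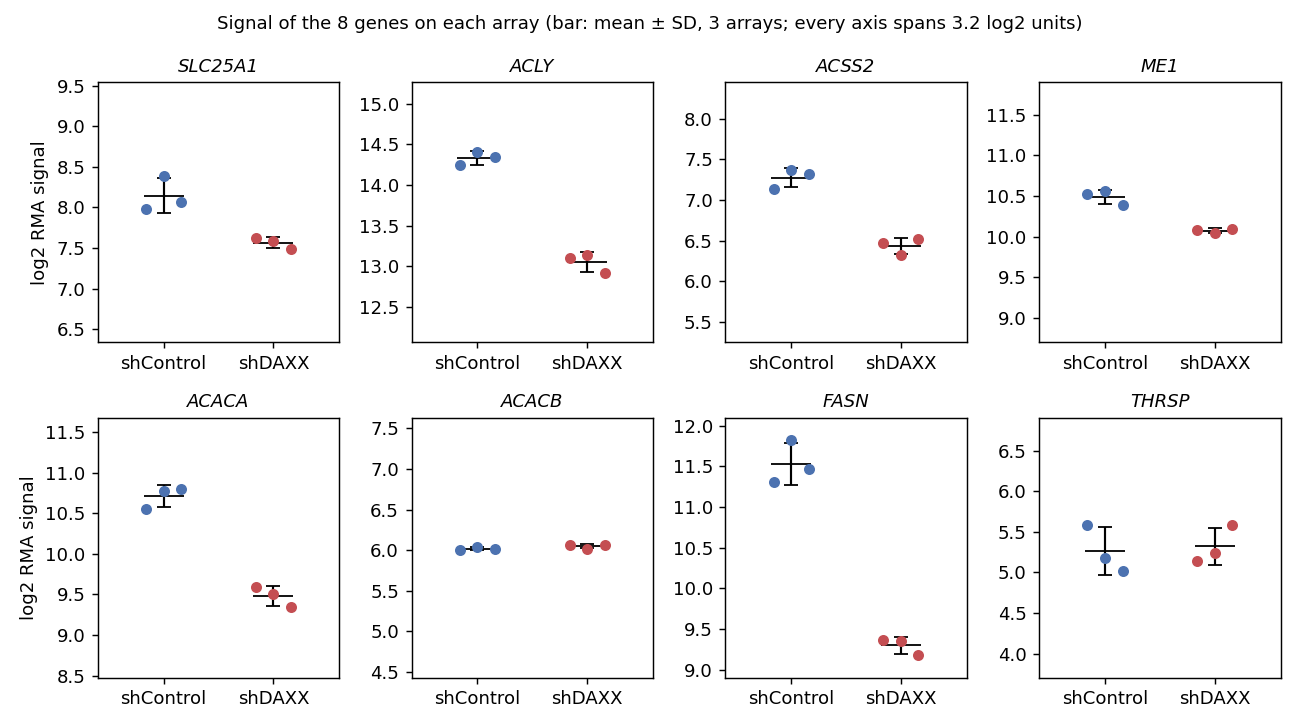
Log2 RMA signal (vertical axis) of each of the 8 genes in shControl (blue) and shDAXX (red), 1 point per array with the mean and SD of 3 arrays, on axes of equal length. The groups are apart for SLC25A1, ACLY, ACSS2, ME1, ACACA and FASN, and overlap for ACACB and THRSP.

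DAXX, the target of the hairpin, was lower in shDAXX, at 6.69, 6.67 and 6.61 against 7.49, 7.48 and 7.43 in shControl on the log2 scale of the arrays (-0.81, SE 0.060, limma adjusted p = 4.9e-04), with no overlap. This cluster, its brightest, kept 57.0% of the control signal, and the mean of the gene's clusters changed by -0.72 (limma adjusted p = 7.1e-04). As for the label of the cells, the line's own markers VIM, CD44 and EGFR had mean signals of 12.88 to 15.90, while 3 measured markers that triple-negative mesenchymal lines lack, ESR1, PGR and CDH1, lay at 4.04 to 4.78, below the table's median row mean of 4.99. The 5 adipocyte markers (3.98 to 4.99), 4 leukocyte markers (4.38 to 5.29) and 3 endothelial markers (4.70 to 6.17) gave mean signals mostly around that median, with 0, 2 and 2 above it. The highest of them was CDH5, 1.17 log2 units above it. Summed log2 signals of the adipocyte list ran from 21.95 to 22.87 in shControl and from 21.67 to 22.23 in shDAXX. Its markers ADIPOQ, FABP4 and LEP lay below the table's median row mean in every array, while PLIN1 and CIDEC exceeded it in some. The leukocyte sums were 19.33 to 19.90 and 19.42 to 19.79, and the endothelial sums 15.99 to 16.47 and 15.95 to 16.63. Of the markers of other cells, PTPRC (-0.29, limma adjusted p = 0.027) and CDH5 (0.37, adjusted p = 0.037) were called, calls that were lost without any 1 array for PTPRC (0.066 to 0.087) and in 5 of 6 such fits for CDH5 (0.072 to 0.11, against 0.035 without shDAXX replicate 1). CD44 was called higher (0.39), a call lost with the mean of its clusters (0.21), when every cluster was tested (0.088), and without shDAXX replicate 2 (0.0505) or 3 (0.053). The part of these markers in the falls was not tested.

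The windows around the transcription starts of these genes were read from RefSeq (GRCh38.p14), 250 bases before and 50 bases after each start. The table holds 12 windows of 7 of the genes, and FASN was not among them. The windows printed here set the enzyme at the head of the route beside the pair of carboxylases, of which 1 fell and 1 was not called, and they are the upstream of 2 ACLY windows (chr17:41918973-41919272, minus strand), the middle of 3 ACACA windows (chr17:37359047-37359346, minus strand) and the downstream of 2 ACACB windows (chr12:109154429-109154728, plus strand). Capitals mark the NF-Y box CCAAT and the Sp1 GC box GGGCGG on either strand.
ACLY: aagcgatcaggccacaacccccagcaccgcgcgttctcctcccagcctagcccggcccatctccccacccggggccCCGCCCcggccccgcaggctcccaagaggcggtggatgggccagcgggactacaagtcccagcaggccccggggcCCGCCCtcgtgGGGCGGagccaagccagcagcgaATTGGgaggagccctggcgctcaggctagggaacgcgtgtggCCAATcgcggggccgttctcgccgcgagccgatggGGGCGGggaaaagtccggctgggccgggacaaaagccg
ACACA: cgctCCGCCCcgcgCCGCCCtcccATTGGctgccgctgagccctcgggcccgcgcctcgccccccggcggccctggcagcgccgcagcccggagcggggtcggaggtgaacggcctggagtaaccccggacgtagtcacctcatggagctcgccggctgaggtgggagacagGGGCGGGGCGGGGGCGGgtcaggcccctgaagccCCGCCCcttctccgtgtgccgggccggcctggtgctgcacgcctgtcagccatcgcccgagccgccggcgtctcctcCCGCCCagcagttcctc
ACACB: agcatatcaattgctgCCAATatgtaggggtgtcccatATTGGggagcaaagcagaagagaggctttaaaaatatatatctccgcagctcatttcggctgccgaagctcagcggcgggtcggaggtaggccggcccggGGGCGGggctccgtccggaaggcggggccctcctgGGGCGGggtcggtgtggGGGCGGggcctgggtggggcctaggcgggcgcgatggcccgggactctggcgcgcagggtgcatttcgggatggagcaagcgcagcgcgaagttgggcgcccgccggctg

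The ACLY window held 2 NF-Y boxes and 4 GC boxes. The ACACA window held 1 NF-Y box and 7 GC boxes, 2 of which overlap by a base in a run of 3 from -78 to -62, counted from the transcription start. The ACACB window held 2 NF-Y boxes and 3 GC boxes, so that both kinds of match stood in the printed windows of both carboxylases. In the windows not printed, the upstream ACACA window held 0 NF-Y boxes and 6 GC boxes and the downstream one 2 and 0. The upstream ACACB window held 0 of either. Over both strands, the NF-Y box was in 8 of the 12 windows and in 34.6% of all 35116, and the GC box in 9 of 12 and in 45.0% of all. Content of G and C ran from 45.3% to 82.3% in the 12 windows, mostly above the median of 58.7% over all windows. The part of base composition in these shares was not tested. The sterol regulatory element core TCACNCCAC was in 0 of 12 and in 1.13% of all windows, and the E-box CACGTG in 0 of 12 and in 7.26%. The 2 ACLY windows overlap and share their matches. Such a match is a run of letters and not a known binding site, and its absence concerns these letters in these windows alone. Variants of the elements were not searched.

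Among the suppliers of acetyl-CoA, the citrate branch fell most at its lyase. ACLY read 14.25, 14.41 and 14.34 in shControl and 13.10, 13.14 and 12.92 in shDAXX. The groups were separated by 1.11 log2 units, many times the spread within either. ACLY thus changed by -1.28 (SE 0.0833, limma adjusted p = 2.7e-04), a 2.43-fold fall with a 95% interval of 2.12 to 2.78, and ranked 64 among the falls of all genes. The citrate carrier fell less. SLC25A1 read 7.98, 8.39 and 8.07 in shControl and 7.62, 7.59 and 7.49 in shDAXX, where shControl replicate 2 stood above its partners. Its log2 fold change was -0.58 (SE 0.114, limma adjusted p = 0.022, 1.49-fold, interval 1.24 to 1.80). That call was lost without shControl replicate 3 (0.0536) or shDAXX replicate 1 (0.0597), 2 (0.064) or 3 (0.080).

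The acetate branch was lower as well. ACSS2 read 7.14, 7.37 and 7.32 in shControl and 6.47, 6.33 and 6.52 in shDAXX, with 0.62 log2 units between the groups. Its change was -0.84 (SE 0.0880, limma adjusted p = 0.0019, 1.79-fold, interval 1.55 to 2.06). The difference between their log2 fold changes was -0.44 (SE 0.122, n = 3), the groups did not overlap in it, and the exact two-sided permutation test gave p = 0.10, the smallest that 20 arrangements of 3 against 3 arrays allow, also after adjustment over the 3 pairs of genes compared. No such pair could therefore pass 0.05.

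ME1, which feeds NADPH to the synthase, showed the smallest of the called changes. It read 10.52, 10.56 and 10.39 in shControl and 10.08, 10.04 and 10.10 in shDAXX, so that the groups were 0.29 log2 units apart. The log2 fold change was -0.42 (SE 0.0690, limma adjusted p = 0.012, 1.33-fold, interval 1.19 to 1.5).

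Of the 2 carboxylases, ACACA was called lower and ACACB was not called. ACACA read 10.55, 10.77 and 10.80 in shControl and 9.59, 9.50 and 9.35 in shDAXX. It fell by 1.23 on the log2 scale (SE 0.0973, limma adjusted p = 6.7e-04, 2.34-fold, interval 1.99 to 2.75), close to the fall of ACLY and ranked 74 among all genes. ACACB read 6.00, 6.04 and 6.01 in shControl and 6.06, 6.02 and 6.06 in shDAXX, values that overlap. Its log2 fold change was 0.03 with a 95% interval of -0.11 to 0.17 (adjusted p = 0.82). This interval bounds a rise in its signal at 1.12-fold and a fall at 0.11 log2 units. The signal, however, was only 1.04 log2 units above the table's median row mean, and RMA compresses changes near background. The difference between the log2 fold changes of ACACA and ACACB was -1.26 (SE 0.103, n = 3), with no overlap between groups (exact permutation p = 0.10, the smallest possible, and 0.10 adjusted over 3 pairs).

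FASN, the synthase itself, had the deepest fall of the 8 and ranked 13 among the falls of all 22465 genes. It read 11.31, 11.82 and 11.47 in shControl and 9.36, 9.35 and 9.18 in shDAXX. The lowest control array was 1.95 log2 units above the highest shDAXX array, although shControl replicate 2 was again above its partners. The log2 fold change was -2.24 (SE 0.135, limma adjusted p = 2.0e-04), a 4.71-fold fall with an interval of 3.78 to 5.88. The log2 fold change of FASN minus that of ACACA was -1.01 (SE 0.117, n = 3, no overlap, exact permutation p = 0.10 and 0.10 adjusted over 3 pairs). In the order of fold changes, FASN therefore came first by an interval that met none of the others. ACLY and ACACA followed with intervals of -1.48 to -1.08 and -1.46 to -1.0 that largely overlap, then ACSS2 (-1.05 to -0.63), SLC25A1 (-0.85 to -0.31) and ME1 (-0.58 to -0.25), whose intervals each overlap that of the gene before.

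THRSP was dim and variable. It read 5.59, 5.18 and 5.02 in shControl and 5.14, 5.24 and 5.58 in shDAXX, on average 0.30 log2 units above the median row mean. The ranges overlap almost wholly, and the log2 fold change was 0.06 (interval -0.35 to 0.47, adjusted p = 0.89). That interval allows a rise of up to 1.38-fold and a fall of up to 0.35 log2 units.

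The 6 called genes were read on the same 6 arrays and are not independent. In shControl, replicate 2 was the highest for 5 of the 6 (ACACA was the exception) and replicate 1 the lowest for 5 (ME1 was the exception). In shDAXX, replicate 3 was the lowest for 4 of the 6 and the highest for the other 2, ACSS2 and ME1. The median deviation of the 6 genes from their group mean was -0.15 for shControl replicate 1, 0.08 for shControl replicate 2 and -0.10 for shDAXX replicate 3, where all genes had 0.01, 0.01 and 0.00. The SD was larger in shControl for 5 of the 6, as it was for 50.9% of all genes. Leaving out shControl replicate 2 moved the log2 fold change of FASN to -2.09 and that of SLC25A1 to -0.46.

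**Figure D2:**
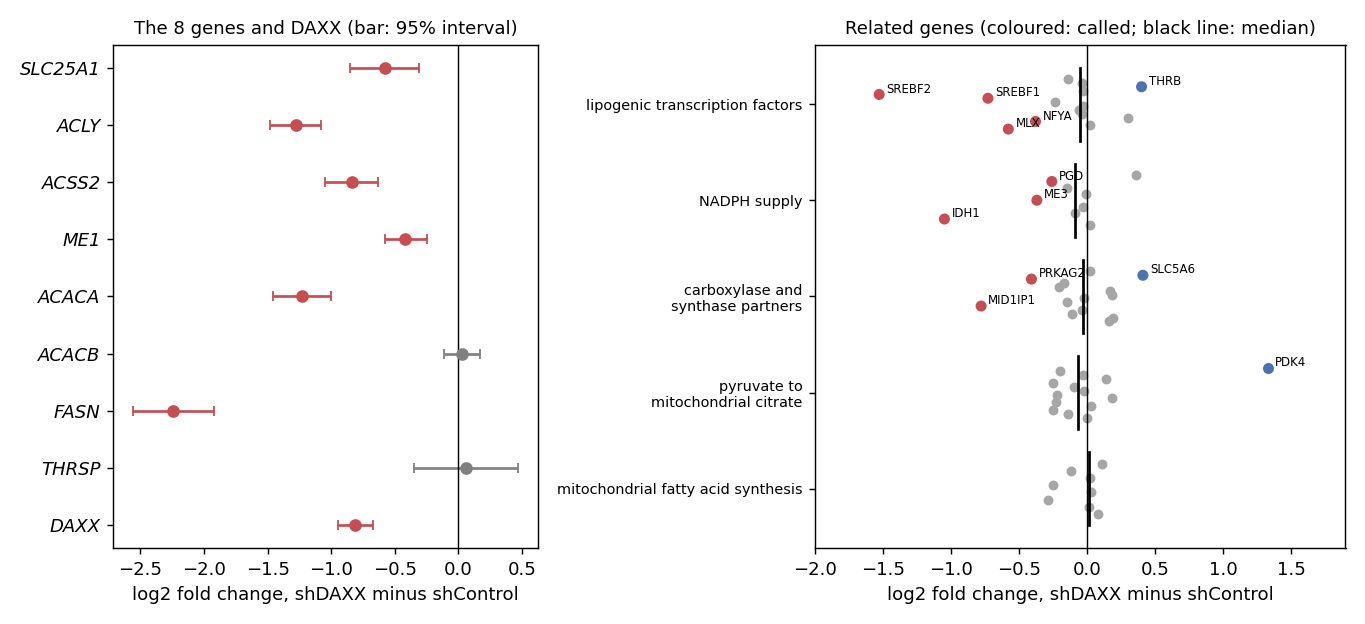
Log2 fold change, shDAXX minus shControl (horizontal axes), of the 8 genes and DAXX with 95% intervals (left; red, called lower; grey, not called) and of 5 lists of related genes, 1 point per gene (right; red, called lower; blue, called higher; grey, not called; black line, list median). FASN lies farthest to the left at -2.24, and the list medians lie between -0.09 and 0.01.

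Lists of genes next to this route in metabolism had medians near that of all genes. Calls in these lists are set beside 5.60% lower and 4.30% higher over all genes. Of 14 measured genes that carry pyruvate to mitochondrial citrate, 0 were lower and 1 was higher, with a median of -0.06. The exception was PDK4, a kinase that switches off pyruvate dehydrogenase, which rose from 6.90, 6.96 and 6.79 to 8.13, 8.11 and 8.39 (1.33, SE 0.0959, limma adjusted p = 4.4e-04). The pyruvate dehydrogenase subunit PDHA1 (-0.02, adjusted p = 0.92) and the citrate synthase CS (-0.14, adjusted p = 0.32) did not pass. Neither did MPC1 (-0.23, adjusted p = 0.087), DLAT (-0.25, 0.16), PDHX (-0.25, 0.15) and PC (-0.22, 0.16). For these last genes, however, every shDAXX array lay below every shControl array, as for 14.7% of all genes. Only PDK4 was separated upward in this list.

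NADPH supply outside ME1 had 3 of 9 genes lower and 0 higher, with a median of -0.09, beside 5.60% lower and 4.30% higher over all genes. IDH1, the cytosolic isocitrate dehydrogenase, read 9.40, 9.49 and 9.31 in shControl and 8.43, 8.26 and 8.35 in shDAXX (-1.05, SE 0.0776, limma adjusted p = 4.8e-04). ME3, a mitochondrial malic enzyme, was lower by a call that did not last (-0.37, adjusted p = 0.0402), since it was lost without any 1 array (0.060 to 0.12), after quantile normalization (0.0502) and with the replicate block (0.10). PGD of the pentose phosphate route was named after its values were seen (-0.26, adjusted p = 0.046), and its call was not checked under other settings.

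In the mitochondria a separate route builds fatty acids for lipoic acid with other enzymes. Of its 8 measured genes none was called (median 0.01), and 1 had an unadjusted p under 0.05. That was HSD17B8, a ketoacyl reductase subunit (-0.29, adjusted p = 0.17), which, among the alternatives run, was called only without shControl replicate 1 (0.0458). LIPT2, a lipoyl transferase, was at -0.25 (adjusted p = 0.30).

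Among 14 partners of the carboxylases and the synthase, 2 were lower and 1 was higher (median -0.03), beside 5.60% and 4.30% of all genes. MID1IP1, a relative of THRSP that promotes the polymerization of acetyl-CoA carboxylase, read 7.47, 7.88 and 7.54 in shControl and 6.87, 7.03 and 6.66 in shDAXX. It fell by 0.78 on the log2 scale (SE 0.138, limma adjusted p = 0.015), and its call was lost without shDAXX replicate 1 (0.0525) or 3 (0.0501). PRKAG2, a regulatory subunit of the AMP-activated kinase that phosphorylates the carboxylases, was lower (-0.41, adjusted p = 0.0098, or 0.074 and not called when every cluster was tested). The catalytic subunits PRKAA1 (-0.02) and PRKAA2 (0.18) did not pass. SLC5A6, a transporter of biotin and other vitamins, was higher (0.41, adjusted p = 0.037), a call that held in 1 of 6 fits with an array left out (without shDAXX replicate 3, 0.016; the others 0.09 to 0.12) and was lost with the replicate block (0.0516) and with equal array medians (0.076).

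The transcription factors known to act on these genes were lower in 4 of 14 cases and higher in 1, around a median of -0.05. Over all genes, 5.60% were called lower and 4.30% higher. SREBF2 read 8.08, 8.31 and 8.06 in shControl and 6.6, 6.64 and 6.63 in shDAXX. It fell by 1.53 on the log2 scale (limma adjusted p = 1.3e-04), and SREBF1, whose product is the main driver of fatty acid synthesis genes, by 0.73 (adjusted p = 0.0023). SREBF1 read 7.58, 7.81 and 7.65 in shControl and 7.0, 6.88 and 6.96 in shDAXX, its highest control array being the same replicate 2. MLX, the partner of the glucose-sensing factor MLXIPL, was lower (-0.58, adjusted p = 0.0045), and so was NFYA, the subunit of NF-Y that contacts the CCAAT box (-0.38, adjusted p = 0.026), both named after their values were seen. Neither call was checked under other settings. THRB, a thyroid hormone receptor, was higher (0.40, adjusted p = 0.012, or 0.081 and not called when every cluster was tested). MLXIPL itself was dim at 4.69 in shControl and 4.71 in shDAXX, under the median row mean.

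The genes with the closest profile over the 6 arrays were found for each called gene, by the root mean square distance (in log2 units) between deviations from the shControl mean. For FASN they were STARD4, a sterol carrier (0.159), ENPP1, a membrane pyrophosphatase (0.167), and SLC7A11, the cystine importer (0.167), whose log2 fold changes were -2.16, -2.39 and -2.10. For ACLY they were LPIN1, a phosphatidate phosphatase (0.0555), the pseudogene HSD17B7P2 (0.0677) and the myosin gene MYH10 (0.0684). ACACA was nearest to HSD17B7, an enzyme of cholesterol synthesis (0.0636), to ACLY itself (0.0708) and to LTBP1, a binder of latent TGF-beta (0.0814). HSD17B7 and its pseudogene may share probes and are not independent. The smaller falls had nearer neighbours, with TIAM1, PLCE1 and RECQL at 0.04 to 0.0448 from ACSS2, KLF12, ARHGEF2 and CDCA3 at 0.0529 to 0.0608 from SLC25A1, and RANBP9, WWTR1 and HABP4 at 0.0296 to 0.0319 from ME1. SLC25A1 and ME1 ranked 578 and 1137 among the falls of all genes, so that many genes had changes of a similar size.

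FASN, ACLY and ACACA all lie on chromosome 17, and the latter pair lies among lowered neighbours. Calls among these neighbours are set beside 5.60% lower and 4.30% higher over all genes. The 10 measured protein-coding genes on each side of ACACA had a median log2 fold change of -0.23, with 9 of 20 called lower and 0 higher, the lowest of them DDX52 at -0.57. Those around ACLY had a median of -0.15, with 5 of 20 lower and 0 higher and FKBP10 lowest at -0.61. Their direct neighbours were AATF (-0.51) and C17orf78 (0.04) for ACACA, and KLHL11 (-0.16) and ODAD4 (0.12) for ACLY. ACACA and ACLY fell further than every one of these neighbours, by 1.0 and 1.13 beyond their medians. Around FASN, far along the same arm, the median was 0.02 with 1 called lower and 1 higher, and its direct neighbours DUS1L (0.17) and CCDC57 (-0.07) did not pass. All 1004 measured protein-coding genes of the chromosome had a median of -0.02. The part of the neighbours' shift in the falls of ACACA and ACLY was not tested.

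**Figure D3:**
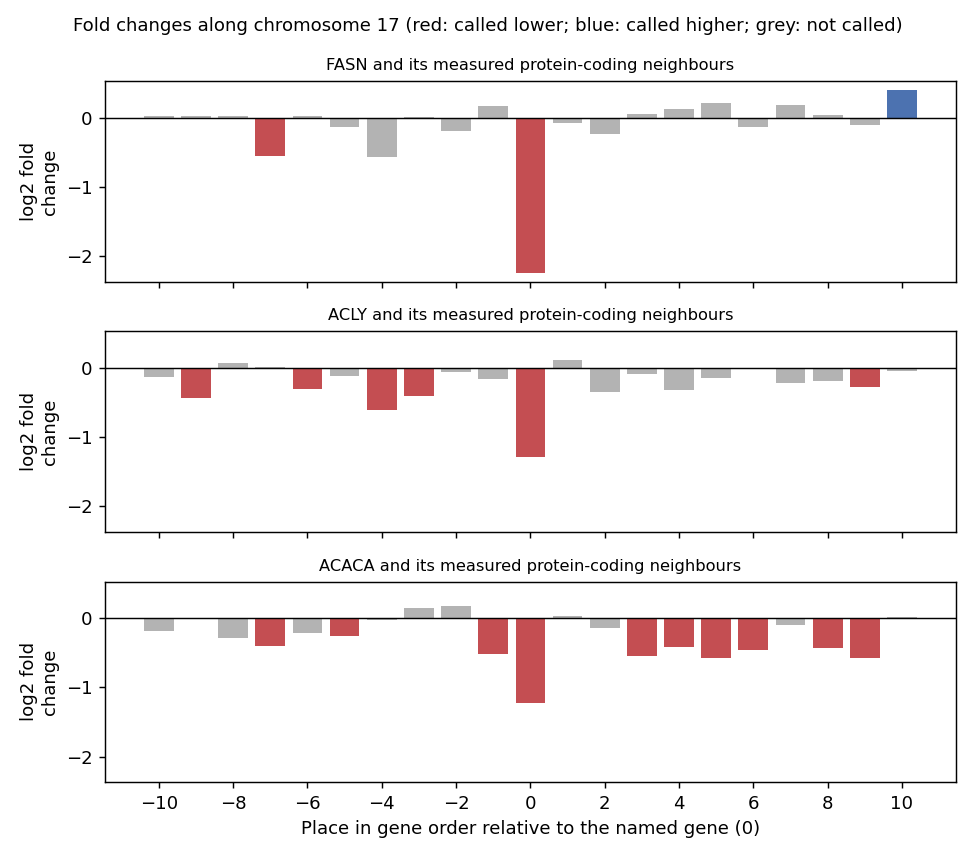
Log2 fold change, shDAXX minus shControl (vertical axes), of FASN, ACLY and ACACA and of the 10 measured protein-coding genes on each side, in gene order on chromosome 17 (horizontal axis; red, called lower; blue, called higher; grey, not called). Each named gene, at place 0, is the lowest bar of its panel.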

How the data were processed

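Labelled cRNA from 6 samples (3 shControl, 3 shDAXX) was read on single-colour Affymetrix Human Transcriptome Arrays. The deposited values, log2 signals of each transcript cluster, were made by the authors with RMA in Affymetrix Expression Console, per the labels and the study's methods, with background correction, normalization between arrays and summary over probes. The log base was inferred from the range (1.88 to 19.52). In the table, 1067 values were above 16, the log2 limit of a 16-bit scan, so that some rescaling beyond plain RMA is likely, and the sizes of fold changes depend on it. The methods describe a batch correction for arrays of different times. Whether it was applied here, the console's version and the array's build are not given in the sources used here.

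Of 70523 table rows, 67528 were clusters, 23781 of them with 1 symbol in the annotation. Gene IDs of 21497 matched RefSeq (GRCh38.p14), used for names and gene order. The cluster with the highest mean stood for each of 22465 genes. limma 3.58.1 (R 4.3.3; lmFit, eBayes, no covariates, two-sided) compared the groups, with Benjamini-Hochberg adjustment over all genes and a threshold of 0.05. The fit was tested on simulated data. Over all table rows, array medians ran from 4.96 to 5.07. Across the 22465 genes, correlations of arrays ran from 0.996 to 0.997 within and 0.991 to 0.992 between groups. The number of arrays limits the precision.

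The 8 genes, the related lists and the tests were chosen with earlier results of these data known. Named genes were the 8, DAXX, per list up to 2 called per direction by size of change (or the 2 smallest p), the 3 nearest profiles of each called gene, and the first neighbours on each side and, chosen after their values were seen, the lowest neighbour and the examples PDHA1, CS, PRKAA1, PRKAA2 and MLXIPL. MPC1, DLAT, PDHX and PC were also named after their values were seen. Some genes of the lists were not analysed here. Alternatives were a filter on dim genes, quantile normalization, every cluster, equal medians of the arrays, averaging the clusters of a gene, the replicate block, array weights, trended and robust eBayes, the methods' t-test without and with their 1.3-fold threshold, and each array left out in turn. Without the fold threshold the t-test's p was adjusted over all genes, and with it the p was unadjusted, as in the methods.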

Additional observations from a re-analysis of the deposited data

How the results depend on the processing

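Over all genes, 1257 were called lower and 967 higher, and 5310 had an unadjusted p under 0.05. The methods' t-test, with p adjusted over all genes, called 811 lower. Higher calls numbered 537 among all clusters, 617 with equal array medians and 606 with the replicate block. Leaving out 1 array gave 722 to 857 lower and 515 to 609 higher, where fewer arrays enter the fit. The share of lower calls was 56.5%, and 43.7% after quantile normalization. For the other settings and the member counts the cause of a shift was not tested.

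All alternatives run kept the direction of the 6 lowered genes. FASN, ACLY, ACACA and ACSS2 stayed called in each (adjusted p at most 0.011, 0.0091, 0.015 and 0.024). Only 4 of the 8 genes were called when every transcript cluster was tested, which adjusts over more rows and lost SLC25A1 (0.087) and ME1 (0.079), and 5 by the methods' t-test, which lost SLC25A1 (0.099). Testing every cluster also ended the calls of ME3 (0.15), MID1IP1 (0.0594), SLC5A6 (0.14), PTPRC (0.16) and CDH5 (0.15), and the replicate block those of PTPRC (0.078) and CDH5 (0.095). The median log2 fold change of the 8 ran from -0.78 without shControl replicate 1 to -0.62 without shControl replicate 2. The differences between paired genes kept their sign throughout, ACLY minus ACSS2 between -0.54 and -0.34.

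The replicate numbers showed no clear pairing of the arrays, which so few arrays cannot settle. Deviations of equally numbered arrays correlated at -0.0906, 0.221 and 0.0807, and 2 of 6 arrays had their own number as best partner. With the replicate block 6 of the 8 genes were called lower, 868 genes in all were lower, and SLC25A1 (0.0477) and ME1 (0.0485) were close to the threshold. The dim signals of ACACB and THRSP limit what could be detected. Outliers were not looked for within groups as small as 3 arrays.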

Other observations

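Around the other genes of the route, calls among neighbours are set beside 5.60% lower and 4.30% higher over all genes. The 20 nearest measured protein-coding genes had a median log2 fold change of -0.11 around ACSS2 (2 lower, 0 higher), -0.01 around SLC25A1 (3 lower, 1 higher), -0.07 around ME1 (3 lower, 0 higher), 0.06 around ACACB (1 lower, 4 higher) and -0.13 around THRSP (3 lower, 0 higher). ACSS2 and SLC25A1 were each the lowest gene of their window, while 1 neighbour of ME1, SH3BGRL2 (-0.53), was lower than ME1 itself.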
